A study of Mus musculus with 6 samples.

Results

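The genes described here protect cells from oxidants and reactive chemicals: the enzymes that make and use glutathione, the thioredoxin and peroxiredoxin systems, catalase and the superoxide dismutases, and the NRF2-KEAP1 pair with a group of its classical targets. They were chosen by gene symbol and by no measured value, though with earlier results of these data known. All genes whose symbol begins as a glutathione transferase (Gst or Mgst), a glutathione peroxidase (Gpx) or a peroxiredoxin (Prdx) were taken, together with 16 listed genes, wherever a probe set named a single gene. This gave 48 genes, measured by 75 probe sets, of 12393 genes measured in all. The 5 probe sets for the peroxiredoxin gene Prdx1 also match a second gene, and 1 probe set is shared by Gsta1, Gsta2 and another gene, so these 6 probe sets were not used.

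The study compared cultured mouse cells of a line called PPP3R1 after 6 h of starvation with cells of the line in normal medium, with 3 arrays in each group. PPP3R1 is also the name of the regulatory subunit of the phosphatase calcineurin; the sources used here do not say how that gene was altered in the line, if at all, nor what the starvation medium lacked. Sample titles name both groups as the PPP3R1 line, whereas the growth and treatment texts give the control as wild-type mouse embryonic fibroblasts, so that starvation and cell line cannot be told apart if those texts are right. The titles speak of biological replicates without stating separate cultures. The p-values therefore reflect only how these samples vary, which may be technical.

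Values are log2 RMA expression values of Affymetrix probe sets, a scale without read depth on which a step of 1 is a doubling. Each gene is given by its probe set with the highest mean. A change is starved minus control with the standard error (SE) from limma, a linear model with a moderated spread. A gene was called higher or lower at a Benjamini-Hochberg adjusted p under 0.05 over all 22626 probe sets tested. Means of both groups under 5 were taken as close to background. Array medians lay between 6.74 and 6.78, and arrays of a group correlated at 0.998. Control replicate 3 stood apart from the other control arrays on the second principal component (-14.6 against 8.78 and 5.16), which held 5.81% of the variance. The signal of the 3′ minus the 5′ end of Gapdh, a check of RNA integrity, was -0.12, -0.15 and -0.11 in the starved arrays and -0.0004, -0.11 and -0.04 in the control arrays. Its part in the results was not tested. Of 11 measured fibroblast markers 10 lay above background and Thy1 did not. The 5 endothelial markers all lay close to background, as did 5 of 6 epithelial and 3 of 4 hepatocyte markers. Of 9 leukocyte markers 4 lay close to background and 5 above it. Pecam1 of the endothelial list (0.24) and Cdh1 of the epithelial list (0.50) were called higher, both close to background. No other endothelial, epithelial or hepatocyte marker was called. The mean of the fibroblast list was 11.85 to 11.87 in the control arrays and 11.67 to 11.70 in the starved arrays. Of its 11 genes 3 were higher (Col1a1 by 0.57, Vim by 0.25 and Fn1 by 0.23) and 4 lower. Those 4 were Lum at -2.05, Pdgfrb at -0.81, Pdgfra at -0.28 and Dcn at -0.19. The mean of the leukocyte list was 4.77 to 4.96 in the control arrays and 4.89 to 4.92 in the starved arrays. Of its 9 genes 2 were higher (Cd68 by 0.43 and Lyz2 by 0.24) and 1 lower (Fcer1g at -0.28). The part of these markers in the results was not tested. In RNA from whole cultures, fewer cells of a type and less RNA per cell cannot be told apart.

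Glutathione is a tripeptide made from glutamate, cysteine and glycine. Many, though not all, glutathione peroxidases spend it to reduce peroxides, glutathione transferases attach it to reactive compounds, and glutathione reductase regenerates it with NADPH. Thioredoxin and its reductase form a parallel system that recharges the peroxiredoxins. In resting cells KEAP1 marks the transcription factor NRF2, encoded by Nfe2l2, for degradation. Oxidants and electrophiles release NRF2, which pairs with small MAF proteins on antioxidant response elements and induces many of these genes, in fibroblasts as in other cells. This control acts largely on NRF2 protein, which arrays do not measure.

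The core of the antioxidant response element, TGACNNNGC, was searched on both strands of the RefSeq promoter windows (build GRCm38.p6), which run from 250 bases before to 50 bases after each annotated start. Of the 48 genes 42 had a window, and 9 of these (21.4%) held the motif, against 1614 of 9887 measured genes with a window (16.3%). The 6 genes with no window here were Abcc1, Gclc, Gsr, Gsta4, Gstt2 and Hmox1. The stretches below are printed because they show the same core beside genes that moved in different ways. Each is written 5′ to 3′ on the strand of its gene, with the motif in capitals. In Gclm and Txnrd1 it reads on the opposite strand, so its reverse complement is seen.
Gclm, chr3:122245398-122245457, plus strand: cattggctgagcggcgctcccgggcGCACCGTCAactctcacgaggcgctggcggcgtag
Txnrd1, chr10:82859089-82859148, plus strand: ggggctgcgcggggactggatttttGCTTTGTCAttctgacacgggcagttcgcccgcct
Gstm5, chr3:107895787-107895846, plus strand: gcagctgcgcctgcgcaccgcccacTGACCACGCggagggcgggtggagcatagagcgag
Gstm7, chr3:107931709-107931768, minus strand: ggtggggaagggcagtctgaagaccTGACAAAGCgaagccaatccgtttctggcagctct
Nfe2l2, chr2:75704854-75704913, minus strand: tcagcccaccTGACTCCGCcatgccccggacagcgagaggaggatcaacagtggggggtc

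As given further on, Gclm rose, Gstm5, Gstm7 and Nfe2l2 fell, and Txnrd1 did not pass the test. The other windows with the motif were those of Gsta3, Mgst1, Sod1 and Srxn1, none of which passed. Counted by direction, the motif stood in 1 of 6 windows of genes that rose, in 3 of 11 of genes that fell and in 5 of 25 of genes that did not pass. Abcc1, Gclc and Gsr, which rose, and Gsta4, which fell, had no window, and bases outside the windows were not searched. A match of these letters is a description of the window and not evidence of binding.

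The study asked how starvation altered transcript levels. Among the antioxidant genes, those for making and reducing glutathione rose together with Nqo1, Ephx1, Abcc1 and thioredoxin, while several glutathione transferases, the secreted peroxidase Gpx3, mitochondrial superoxide dismutase and Nfe2l2 itself fell. In limma's test 9 of the 48 genes were called higher and 12 lower, and 27 did not pass. The share called, 43.8%, was near that of all genes, of which 40.8% were called (20.8% higher and 20.1% lower), so the number of calls does not set these genes apart. Their median change was -0.05, against -0.01 for all genes. Both group means lay under 5 in 9 of the 48, none of which was called; of the other 39 genes 21 were called, and 54.3% of all measured genes above that level were. The groups did not overlap in 31 of the 48 genes (64.6%), against 52.5% of all genes. An absolute change of at least 0.5 together with a call was found in 8 of the 48, against 14.4% of all genes. Without control replicate 3 the counts were 8 higher and 10 lower.

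**Figure D1:**
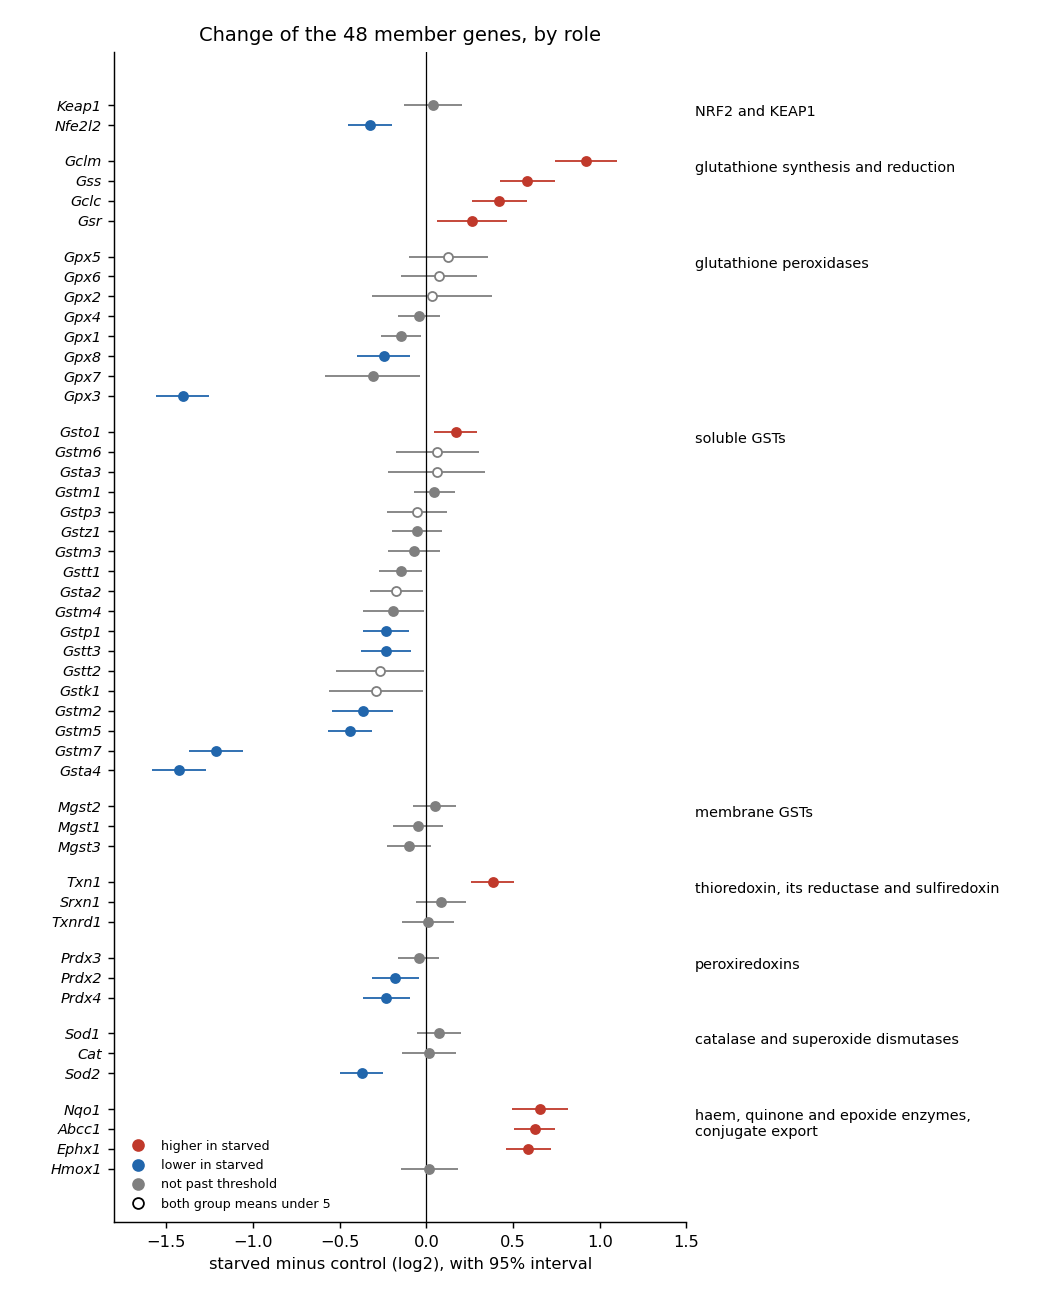
Change in starved against control cells (log2, horizontal axis) of each of the 48 genes, grouped by role, as points with the 95% interval from limma; red is higher, blue lower and grey not past the threshold, and open points have both group means under 5. All 4 genes of glutathione synthesis and reduction lie right of 0, and Gsta4, Gpx3 and Gstm7 lie farthest left.

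The 2 regulators are described first. Nfe2l2 encodes NRF2, and its values were 10.34, 10.34 and 10.31 in the control arrays and 10.06, 9.98 and 9.97 in the starved arrays. All 3 starved arrays were lower than every control array. The fall of 0.33 ± 0.05 (SE, n = 3 per group) was 1.25-fold (limma adjusted p = 0.00205). Keap1, which encodes the sensor that holds NRF2 in check, read 8.43, 8.56 and 8.67 in control and 8.56, 8.59 and 8.63 in starved cells. Its groups overlapped, and the difference of 0.04 had a 95% interval from -0.13 to 0.20 (limma adjusted p = 0.721). Its other probe set differed by -0.09, also without passing.

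All 4 genes for making and reducing glutathione rose, against 20.8% of all genes, with a median change of 0.50. Gclm encodes the modifier subunit of glutamate-cysteine ligase, the enzyme of the rate-limiting step. It read 8.06, 8.15 and 8.32 in control and 9.08, 9.06 and 9.16 in starved cells. The starved arrays were all above the control arrays, and the rise of 0.92 ± 0.08 (1.89-fold, limma adjusted p = 6.39e-05) was the highest among the 48 genes. Gclc, the catalytic subunit of the same ligase, was at 8.44, 8.28 and 8.45 in control and at 8.89, 8.79 and 8.75 in starved cells. It rose by 0.42 ± 0.07 (1.34-fold, limma adjusted p = 0.00191), without overlap between groups, and its second probe set gave 0.42 as well.

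Gss encodes glutathione synthetase, which adds glycine in the last step. Its values were 7.90, 7.72 and 7.74 in control and 8.41, 8.40 and 8.29 in starved cells, a rise of 0.58 ± 0.07 (limma adjusted p = 0.000356). Again no starved array reached down to a control array. Gsr encodes glutathione reductase and read 7.84, 8.03 and 8.14 in control against 8.32, 8.17 and 8.32 in starved cells. The groups did not overlap, but the gap between the highest control and the lowest starved array was narrow. Its rise of 0.26 ± 0.09 was close to the threshold (limma adjusted p = 0.0451), and its second probe set rose by 0.24 ± 0.06. The brighter probe set no longer passed without control replicate 1 (limma adjusted p = 0.124), control replicate 2 (0.0862), starved replicate 1 (0.125) or starved replicate 3 (0.123), and over all alternatives (the other processing settings and left-out arrays that were tried) its adjusted p lay between 0.00694 and 0.131.

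The enzymes of the classical NRF2 response did not move as a block. Nqo1 encodes a quinone reductase that is widely used as an NRF2 reporter. It read 7.98, 8.17 and 8.19 in control and 8.80, 8.77 and 8.73 in starved cells. This rise of 0.66 ± 0.07 (1.58-fold, limma adjusted p = 0.000218) left the groups well apart. Ephx1, the microsomal epoxide hydrolase, was at 11.70, 11.71 and 11.81 in control and 12.30, 12.34 and 12.34 in starved cells. It rose by 0.59 ± 0.06 (limma adjusted p = 0.000123), again without overlap.

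Abcc1 encodes MRP1, a pump that exports glutathione conjugates. Its brighter probe set read 9.33, 9.35 and 9.30 in control and 9.98, 9.95 and 9.93 in starved cells, and rose by 0.63 ± 0.05 (1.54-fold, limma adjusted p = 5.94e-05). The dimmer probe set rose by 0.79 ± 0.09, so both placed every starved array above the control arrays. Hmox1 encodes the inducible haem oxygenase, another standard NRF2 target. It read 9.05, 9.22 and 9.20 in control and 9.27, 9.15 and 9.10 in starved cells. The groups overlapped, and the difference of 0.02 had a 95% interval of -0.15 to 0.18 (limma adjusted p = 0.890), an interval that ends below the interval of Nqo1, which ran from 0.49 to 0.82; the difference between these genes was not tested.

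Of thioredoxin, its reductase and sulfiredoxin, 1 of 3 genes passed, against 40.8% of all genes. Txn1, the cytosolic thioredoxin, read 12.38, 12.43 and 12.45 in control and 12.84, 12.78 and 12.79 in starved cells. It rose by 0.38 ± 0.05 (1.30-fold, limma adjusted p = 0.000823) with no overlap, whereas its second probe set, at a control mean of 5.92, differed by 0.07 ± 0.10 without passing. Txnrd1 encodes the selenium-containing reductase that recharges thioredoxin and read 10.66, 10.84 and 10.71 in control against 10.79, 10.74 and 10.72 in starved cells. Its groups overlapped, with a difference of 0.01 and a 95% interval of -0.14 to 0.16 (limma adjusted p = 0.916). The other 2 probe sets for Txnrd1 gave 0.19 and 0.20 and did not pass. Srxn1, sulfiredoxin, which repairs overoxidised peroxiredoxins, read 7.87, 7.70 and 7.80 in control and 7.91, 7.87 and 7.85 in starved cells. None of its 4 probe sets passed, with changes from -0.07 to 0.10.

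**Figure D2:**
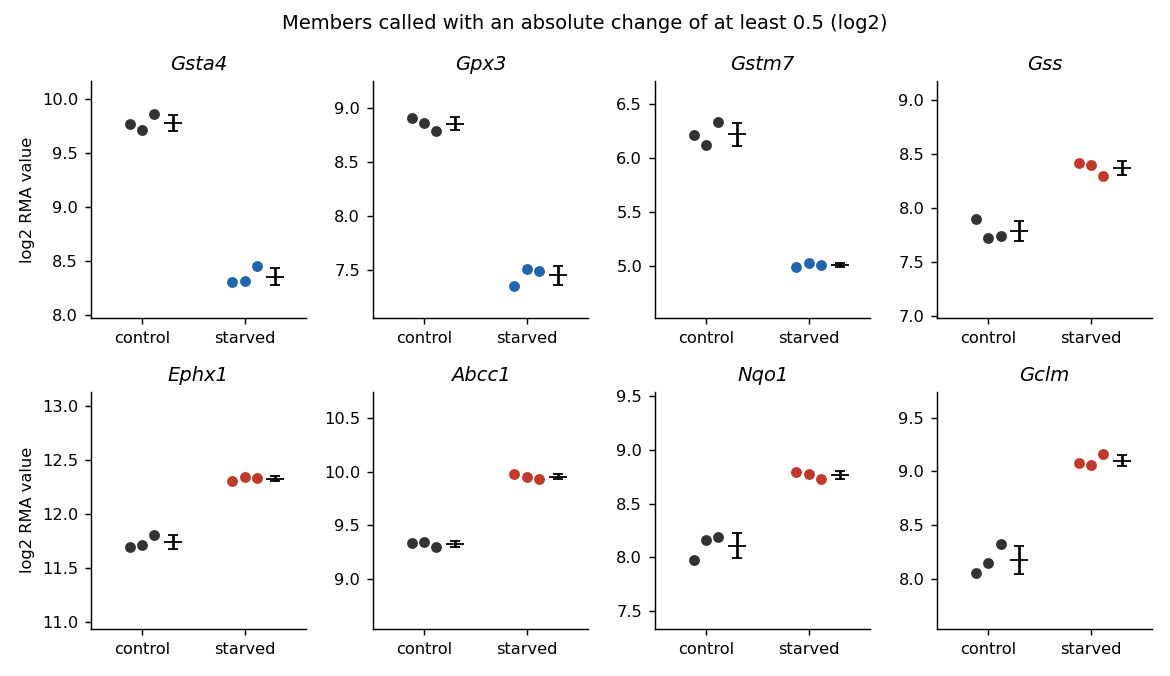
Log2 RMA values (vertical axis, each panel spanning the same range of 2.2) in the 3 control arrays (black points) and 3 starved arrays (coloured points) of the 8 genes called with an absolute change of at least 0.5; bars beside the points are mean and SD. In each panel the groups do not overlap: Gsta4, Gpx3 and Gstm7 are lower and Gss, Ephx1, Abcc1, Nqo1 and Gclm higher in starved cells.

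Among glutathione peroxidases, Gpx3 stood out by its size. Gpx3 encodes the secreted peroxidase found in plasma, a selenoprotein. It read 8.91, 8.86 and 8.79 in control and 7.35, 7.51 and 7.49 in starved cells. Every starved array was more than 1 below every control array, and the fall of 1.41 ± 0.07 was 2.65-fold (limma adjusted p = 5.03e-06). Of the 8 peroxidase genes 2 fell and none rose, against 20.1% of all genes lower. The second, Gpx8 of the endoplasmic reticulum, fell by 0.25 ± 0.07 (limma adjusted p = 0.0186). This call was lost without control replicate 2 (limma adjusted p = 0.0532), control replicate 3 (0.0549), starved replicate 2 (0.0656) or starved replicate 3 (0.0545); all its alternatives ran from 0.000351 to 0.0656.

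Gpx1, the main cytosolic peroxidase, read 12.71 in each control array and 12.59, 12.55 and 12.56 in the starved arrays. The groups did not overlap and the difference was -0.15 ± 0.05, just outside the threshold (limma adjusted p = 0.0520). Gpx1 passed in 6 of 17 alternatives, among them the fit without moderation of the spread (limma fit, adjusted p = 0.00345). Over all 17 its adjusted p ranged from 0.000644 to 0.137. Gpx4, which reduces lipid peroxides in membranes and guards against ferroptosis, read 12.74, 12.74 and 12.77 in control and 12.74, 12.69 and 12.70 in starved cells. It differed by -0.04 with a 95% interval of -0.16 to 0.08 (limma adjusted p = 0.561). Gpx7, another peroxidase of the endoplasmic reticulum, differed by -0.31 ± 0.12 (limma adjusted p = 0.0731). It passed in 3 of 17 alternatives, among them without starved replicate 2 (0.0384, alternatives from 0.0384 to 0.212). Gpx2, Gpx5 and Gpx6, known from gut, epididymis and olfactory tissue, lay close to background in both groups.

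Among the 18 genes for soluble glutathione transferases 6 fell and 1 rose, with a median change of -0.18; the share called, 38.9%, was near the 40.8% of all genes. Gsta4 encodes an alpha class transferase that conjugates reactive aldehydes from lipid peroxidation. It read 9.77, 9.72 and 9.86 in control and 8.30, 8.31 and 8.45 in starved cells, and the groups lay far apart. It fell by 1.43 ± 0.07 (2.69-fold, limma adjusted p = 5.17e-06), the largest absolute change among the 48 genes. Over the 6 arrays, the genes outside the list whose values correlated best with Gsta4 (Pearson r from 0.999 to 1.00) were Scd1, Minpp1, Oat, Fdft1 and Tnfrsf12a, all lower in starved cells; 6 arrays in 2 groups give many such correlations. The other 2 alpha class genes, Gsta2 and Gsta3, lay close to background.

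The 7 mu class genes stand next to each other in the RefSeq gene order (assembly GRCm38.p6). They run in the order Gstm5, Gstm7, Gstm6, Gstm3, Gstm2, Gstm1 and Gstm4. Of these 7 genes 3 fell, against 20.1% of all genes. Gstm7 read 6.21, 6.12 and 6.33 in control and 4.99, 5.02 and 5.01 in starved cells. All starved values were lower and sat at the limit used for dim probe sets, which makes the size of the fall, 1.21 ± 0.07 (2.32-fold, limma adjusted p = 9.54e-06), less certain. The second probe set of Gstm7 lay close to background and differed by 0.00 ± 0.09, and the mean of both fell by 0.61. Gstm5 fell by 0.44 ± 0.05 (limma adjusted p = 0.000425) and Gstm2 by 0.37 ± 0.08 (limma adjusted p = 0.00567), both without overlap between groups.

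Their neighbour Gstm1 gave 10.67, 10.63 and 10.64 in control and 10.67, 10.71 and 10.69 in starved cells. It differed by 0.05, with a 95% interval of -0.07 to 0.16, and none of its 4 probe sets passed (changes from -0.18 to 0.05). The interval of Gstm5, -0.57 to -0.32, and that of Gstm7, -1.37 to -1.06, did not reach that of Gstm1; these differences between genes were not tested. Gstm4 differed by -0.19 ± 0.08 (limma adjusted p = 0.0849). It passed in 3 of 17 alternatives, among them without control replicate 2 (0.0210, alternatives from 0.0210 to 0.217). Gstm3 differed by -0.07, and Gstm6 lay close to background. Members of this class have similar sequences, so probe sets may read more than the gene they are named for.

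Of the remaining soluble transferases, Gstp1, the pi class enzyme, fell by 0.23 ± 0.06 (limma adjusted p = 0.0132), a call lost without starved replicate 2 (0.0510, alternatives from 3.60e-05 to 0.0510). Gstt3 of the theta class fell by 0.23 ± 0.06 (limma adjusted p = 0.0187), and lost its call without control replicate 1 (0.0641) or starved replicate 3 (0.0689, alternatives from 0.00804 to 0.0689). Its direct neighbour Gstt1 differed by -0.15 ± 0.05 (limma adjusted p = 0.0623) and passed in 6 of 17 alternatives (adjusted p over all 17 from 0.0207 to 0.165). The single rise of this group, Gsto1 of the omega class, was 0.17 ± 0.05 (limma adjusted p = 0.0372). It was lost on leaving out any single array (adjusted p from 0.0522 without control replicate 1 to 0.113 without starved replicate 3) and on centring arrays on their medians (0.0597), and its alternatives ran from 0.00180 to 0.583, and its second probe set differed by -0.07. Gstz1, which also isomerises a tyrosine breakdown product, differed by -0.06, and Gstp3, Gstt2 and Gstk1 lay close to background. Gstk1 and Gstt2 passed without starved replicate 2 (limma adjusted p = 0.0106 and 0.0202), and Gsta2 passed without starved replicate 3 (0.0479); over their alternatives the adjusted p reached 0.225, 0.251 and 0.218.

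None of the 3 membrane-bound transferases passed. Mgst1 differed by -0.05 (95% interval -0.19 to 0.09), Mgst2 by 0.05 (-0.07 to 0.17) and Mgst3 by -0.10 (-0.23 to 0.03). These intervals leave room for changes of up to 0.23 in size.

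Peroxiredoxins reduce peroxides with a reactive cysteine. Prdx4 of the endoplasmic reticulum read 12.04, 12.03 and 12.04 in control and 11.89, 11.78 and 11.75 in starved cells, a fall of 0.23 ± 0.06 (limma adjusted p = 0.0151). Its 2 dimmer probe sets gave -0.63 ± 0.12, which passed, and -0.20 ± 0.08, which did not. The call of the brightest was lost without starved replicate 2 (limma adjusted p = 0.0528) or starved replicate 3 (0.0585), and all its alternatives ran from 7.90e-05 to 0.0585. Prdx2, a cytosolic enzyme, has no settled direction. Its brighter probe set fell by 0.18 ± 0.06 (limma adjusted p = 0.0450) and its dimmer probe set rose by 0.20 ± 0.06 (limma adjusted p = 0.0303). The fall did not pass when a single array other than starved replicate 1 was left out (limma adjusted p from 0.0787 without control replicate 1 to 0.149 without starved replicate 3), and its alternatives ran from 0.000926 to 0.897. Prdx3 of mitochondria differed by -0.04 (95% interval -0.16 to 0.07).

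Superoxide dismutases turn superoxide into hydrogen peroxide, and catalase destroys hydrogen peroxide in peroxisomes. Sod2, the mitochondrial enzyme, read 10.79, 10.81 and 10.84 in control and 10.49, 10.41 and 10.42 in starved cells. It fell by 0.37 ± 0.05 (1.30-fold, limma adjusted p = 0.000934) with no overlap; a second probe set fell by 0.38 ± 0.06 and the dimmest differed by -0.20 ± 0.07 without passing. Sod1, the cytosolic enzyme, read 11.97, 12.01 and 12.08 in control and 12.08, 12.08 and 12.10 in starved cells. It differed by 0.07 with a 95% interval of -0.06 to 0.20 (limma adjusted p = 0.356), while its dimmer probe set differed by -0.29 with an interval of -0.54 to -0.04, also without passing (limma adjusted p = 0.0696), and the mean of both was -0.11. Cat, catalase, read 10.03, 10.05 and 9.99 in control and 10.15, 9.97 and 9.99 in starved cells. Its groups overlapped, and the difference of 0.01 had a 95% interval of -0.14 to 0.17 (limma adjusted p = 0.897).

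**Figure D3:**
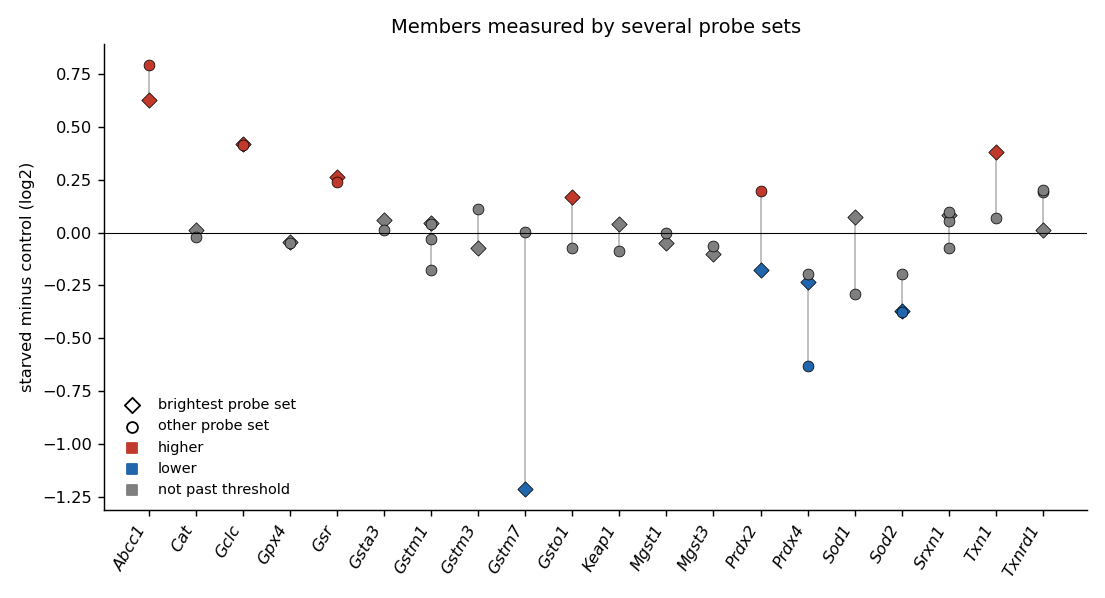
Change in starved against control cells (log2, vertical axis) of each probe set of the 20 genes with more than 1; diamonds are the brightest probe set of a gene and circles the others, coloured red for higher, blue for lower and grey for not past the threshold. Prdx2 has a called probe set on each side of 0, and the probe sets of Gstm7 lie far apart.

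Of the 48 genes 20 had more than 1 probe set. All probe sets were called the same way in 3 of these (Abcc1, Gclc and Gsr), none was called in 11, and in 5 some passed and others did not (Gstm7, Gsto1, Prdx4, Sod2 and Txn1). Prdx2 was the single gene with calls in both directions. The other large changes, those of Gclm, Gss, Nqo1, Ephx1, Gpx3 and Gsta4, each rest on 1 probe set.

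**Figure D4:**
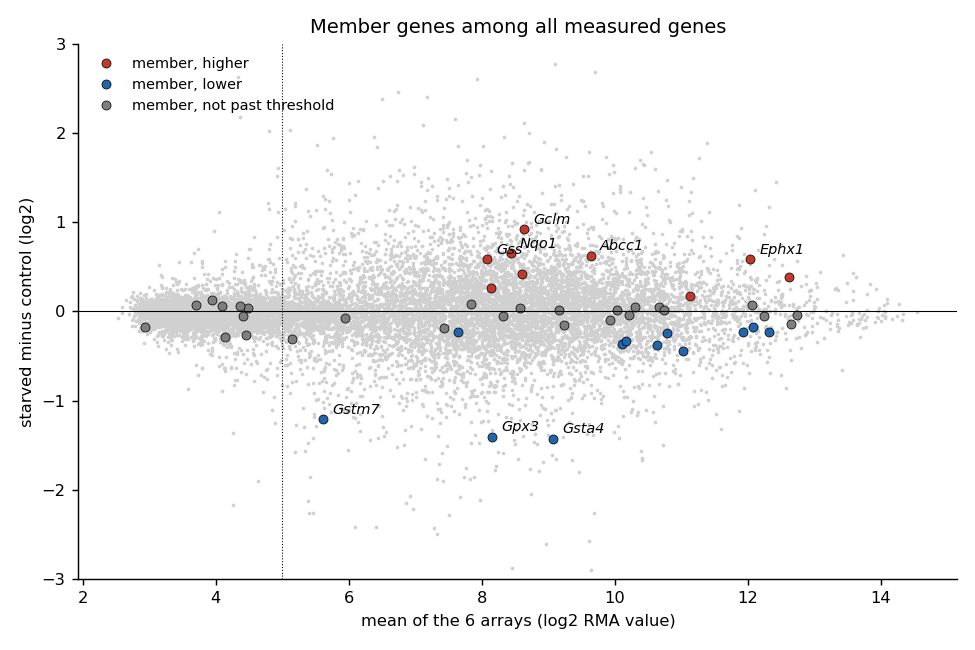
Mean of the 6 arrays (log2 RMA value, horizontal axis) and change in starved against control cells (log2, vertical axis) of all measured genes (small grey dots; those beyond 3 in either direction are not drawn) and of the 48 antioxidant genes (large points, coloured by call). The dotted line marks the level of 5; members under it are all grey, and the 8 named members are those called with an absolute change of at least 0.5.

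Related genes outside the 48 were counted in lists, beside which stand the 20.8% of all genes that were higher and the 20.1% that were lower. Of 8 measured genes for cystine import and cysteine supply 3 rose and 2 fell. Both chains of the cystine-glutamate exchanger rose: Slc3a2 by 0.69 ± 0.06, and Slc7a11, from a control mean of 4.94, close to background, to a starved mean of 5.44, by 0.50 ± 0.10 (limma adjusted p = 6.24e-05 and 0.00533). Cth, which makes cysteine from cystathionine, fell by 1.29 ± 0.08, and the neutral amino acid carrier gene Slc1a4 fell by 0.90 ± 0.06. Of 13 genes for glutathione breakdown and transport 3 fell and none rose, among them the conjugate exporter gene Abcc3, which fell by 1.06 ± 0.08, where the related Abcc1 rose. Of 12 genes supplying NADPH 3 rose and 4 fell; Idh1, the cytosolic isocitrate dehydrogenase, fell by 0.74 ± 0.05 and Taldo1 of the pentose phosphate pathway rose by 0.32 ± 0.06.

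Of 20 glutaredoxins and thioredoxin partners 7 rose and 3 fell (50.0% called, against 40.8% of all genes). All 20 had a group mean of at least 5, and of all measured genes at that level 54.3% were called. Txnip, an inhibitor of thioredoxin, rose by 1.72 ± 0.05, and the methionine sulfoxide reductase genes Msrb2 and Msra rose by 0.58 ± 0.07 and 0.41 ± 0.06, while Glrx2, the mitochondrial glutaredoxin, fell by 0.44 ± 0.06. Of 28 other enzymes and carriers linked to NRF2 10 rose and 7 fell, with a median of -0.04 and changes from -0.33 to 1.30. The called genes named next have the largest absolute changes, and all of them rose. Aldh1a1, a retinaldehyde dehydrogenase, rose by 1.30 ± 0.06, the glycine transporter gene Slc6a9 by 0.83 ± 0.08, Akr1c14 by 0.68 ± 0.07 and the haem transporter gene Slc48a1 by 0.57 ± 0.06, and the ferritin gene Fth1 differed by -0.10 ± 0.05 without passing.

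Of 20 genes for partners and turnover of NRF2 8 rose and 4 fell. Nfe2l3, a relative of NRF2, rose by 2.04 ± 0.06 from a control mean of 4.09, close to background, to 6.13. Sqstm1, whose protein binds KEAP1, rose by 0.96 ± 0.05, the small MAF gene Maff fell by 0.59 ± 0.11, and Cul3, the ligase scaffold that works with KEAP1, differed by 0.20 ± 0.07 without passing. Of 16 genes for selenoproteins and their synthesis 1 rose and 6 fell, with a median of -0.11; the share called, 43.8%, was near the 40.8% of all genes. Dio2, a deiodinase, fell by 2.13 ± 0.15 to 4.32, close to background, the selenium carrier gene Selenop fell by 0.72 ± 0.05, and Sephs1 and Sephs2 fell by 0.68 ± 0.11 and 0.62 ± 0.07. Sephs2 makes the selenium donor for selenoproteins such as Gpx3. Selenof and Selenow differed by 0.00 and -0.01 without passing.

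**Figure D5:**
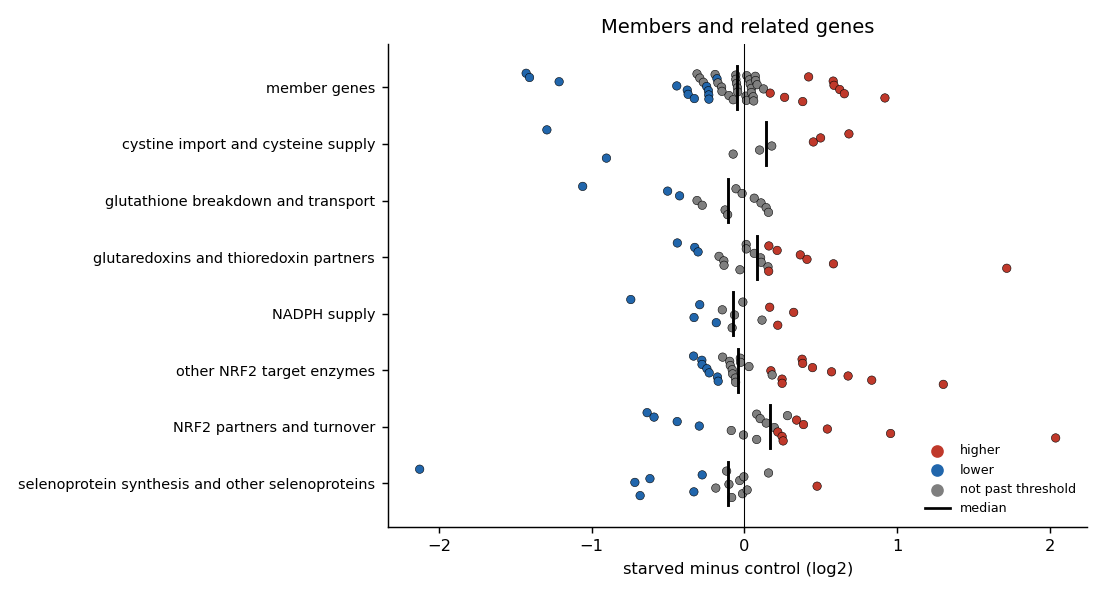
Change in starved against control cells (log2, horizontal axis) of the 48 antioxidant genes and of 7 lists of related genes (rows); each point is a gene, red for higher, blue for lower and grey for not past the threshold, and black bars are medians. Each list holds genes on both sides of 0, and the medians lie between -0.11 and 0.17.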

How the data were processed

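Biotin-labelled cRNA from 3 starved and 3 control samples of total RNA was hybridised to Affymetrix mouse arrays. The deposited table holds log2 values, which the authors computed by RMA (affy, no version stated), per the submitters' processing notes. RMA normalizes all arrays to nearly the same distribution, so a general shift of transcripts would be hidden. There are no detection calls, and precision is limited by the number of arrays.

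Of 22690 probe sets, 64 controls were set aside and 22626 tested; 20380 named 1 gene by the platform annotation, 691 several and 1555 none. RefSeq identifiers changed 0 symbols. The groups were compared in R 4.3.3 by limma 3.58.1 with lmFit and eBayes, in a two-sided test and with no covariate. Benjamini-Hochberg adjustment ran over all probe sets tested. The fit was tested on simulated data. Figures used matplotlib 3.10.9 in Python 3.11.15.

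The genes and lists were chosen with earlier results of these data known, so lists are given by counts and medians without a test. Array values are given for genes called with an absolute change of at least 0.5 and for a fixed set of regulators and main enzymes; of each related list, from up to 4 called genes of the largest change and 2 others of the highest level, the text gives a part. The 5 other genes that correlated best with the member of the largest change are also named. The replicate numbers were not used to pair arrays. Promoter windows came from RefSeq (GRCm38.p6). Of the alternatives, 17 settings were tried: a filter on dim probe sets, scaling, moderation, array weights, the choice of probe set, adjustment, threshold, replicate block and leaving out each array.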

Additional observations from a re-analysis of the deposited data

How the results depend on the processing

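Of the 21 calls among the 48 genes, 14 held under every one of the 17 alternatives that gave a value: those of Gclm, Gclc, Gss, Nqo1, Ephx1, Abcc1, Txn1, Gsta4, Gpx3, Gstm2, Gstm5, Gstm7, Nfe2l2 and Sod2. The other 7 (Gsr, Gsto1, Gpx8, Gstp1, Gstt3, Prdx2 and Prdx4) were lost under at least 1, and 7 of the 27 genes that did not pass did so somewhere. When the probe sets of each gene were averaged, the change of Prdx2 turned from -0.18 to 0.01. A threshold of 0.01 left 7 of the 12 falls. Leaving out single arrays gave 7 to 8 higher and 9 to 12 lower among the 48 genes, and 7691 to 8394 probe sets called against 8933. With the replicate number as a block, 7 were higher and 11 lower and 8168 probe sets were called; Gsr, Gsto1 and Prdx2 lost their calls (limma adjusted p = 0.0602, 0.0879 and 0.0943). Same-numbered arrays did not deviate together (correlations of -0.09, 0.01 and -0.01). With 3 arrays a group this cannot show whether the cultures were paired, and no label says that they were. Of the 27 genes not called, 13 changed sign somewhere, Hmox1, Txnrd1, Cat, Srxn1 and Keap1 among them. The cause of these shifts was not tested. With 3 arrays a group, small changes are seen less surely, and values near 5 have little range to fall.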
